A study of Mus musculus with 20 samples.

Results

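Chromatin remodelers and histone-modifying enzymes were followed as a group of 42 genes, chosen by name from the 55421 genes of the count table. The group holds 2 motor subunits, 7 core subunits and 6 variant-defining subunits of SWI/SNF complexes, 9 histone acetyltransferases and their scaffold proteins, 6 deacetylases and SIN3 partners, 3 CHD remodelers, 4 members of Polycomb repressive complex 2 and 5 histone methyltransferases. All 42 were found, all 42 had at least 10 counts in total and were tested among 22867 genes, and their lowest count in any library was 40. The 20 libraries came from whole livers of wildtype mice, 5 in each of 4 groups. Every mouse received an AAV8 vector with the Cas9 of Staphylococcus aureus under the Tbg promoter and a guide RNA under a U6 promoter. The guide was directed to HIRA, the gene of a chaperone that deposits histone H3.3, or to Rosa26 as the control. Livers were collected 3 weeks or 6 months after the injection. The Tbg promoter is active in hepatocytes, so the other cells of the liver kept Hira, and the Rosa26 mice also carried virus and Cas9. The titles label every mouse female, although the study's text calls these animals male and a legend female, and age at injection is not given in the sources used here for these mice. The titles number the 5 samples of a group as replicates without saying that they are separate litters or injections, so p-values measure the spread between these samples.

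SWI/SNF complexes use ATP to slide or evict nucleosomes and carry 1 of a pair of alternative motor subunits, BRG1 (Smarca4) or BRM (Smarca2). Acetyltransferases open chromatin at enhancers and promoters, while the deacetylases of the SIN3 and NuRD complexes act against them. Polycomb repressive complex 2 methylates histone H3 at silenced genes, and the enzyme subunits Ezh1 and Ezh2 are known to predominate in resting and in dividing cells, respectively.

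Some facts of the whole series touch these genes. The libraries held 19916430 to 24079736 counts, and the 42 genes took 0.130 to 0.165% of them. Hira had 128 to 171 counts in Rosa26 livers and 87 to 127 in HIRA livers at 3 weeks, and 105 to 157 against 109 to 136 at 6 months, with no edgeR call at either time (adjusted p = 0.197 and 0.794). The log2 fold change of Hira was -0.48 at 3 weeks (edgeR unadjusted p = 0.00219) and -0.10 at 6 months. Small cuts by Cas9 can leave a transcript in place, so this count is a limited check of the edit. For this CRISPR knockout the study reports loss of HIRA protein by western blot against Rosa26 controls. The library HIRA 6 months replicate 5 went against its female label, with 9 counts of Xist where the other 19 had 6286 to 8436, and with 2041 counts of Y-linked genes where the others had 0 to 13. It also had the highest share of mitochondrial counts (6.23%, the others 2.84 to 4.89%). Counts of calls at 6 months, and the changes of the members described liver by liver, are therefore given with and without it. The 12 hepatocyte markers were detected in every group and summed to 97568 to 184405 counts per 1000000 (CPM). Among lists of other liver cell types no gene was called in either guide comparison. The 8 stellate cell markers, none of them at 0, summed to 194 to 337 CPM in Rosa26 and 208 to 790 CPM in HIRA livers at 6 months, with a median log2 fold change of 0.48. The 6 T and NK cell markers summed to 3.20 to 25.6 CPM and 3.71 to 29.3 CPM at that time (median 0.61), and the 5 B cell markers to 43.7 to 308 CPM and 53.0 to 198 CPM (median 0.42, and 0.68 at 3 weeks). The 4 neutrophil markers leaned the other way, with median log2 fold changes of -1.89 at 3 weeks and -0.67 at 6 months. They summed to 2.65 to 42.4 CPM in Rosa26 and 2.11 to 4.98 CPM in HIRA livers at 3 weeks, where 1 of them was at 0 in HIRA livers. The part of these cells in the results was not tested. Of 8 evening-phase clock genes, 5 were called higher in HIRA at 3 weeks, with sums of 129 to 239 CPM in Rosa26 and 258 to 682 CPM in HIRA, and 0 at 6 months. From 3 weeks to 6 months 4 of the 8 were called higher in Rosa26 livers, where the sums were 317 to 537 CPM at 6 months. In HIRA livers 0 were called over time, and 4 were called higher in the guide effect averaged over the times. The 4 morning-phase genes summed to 138 to 161 CPM in Rosa26 and 44.1 to 118 CPM in HIRA at 3 weeks, with a median log2 fold change of -1.08 and none called. The part of the clock genes was not tested either. In whole liver, fewer cells of a type and less RNA per cell cannot be told apart.

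The machinery was expressed at a middle level. The members' mean over the 20 livers ranged from 2.55 to 114 CPM with a median of 24.8 CPM, against a median of 15.2 CPM for the 12898 genes of at least 1 CPM. The members had long transcripts, with a median of 7397 exonic bases against 4304 for those genes. Per kilobase of exon their median level was therefore closer to the background, at 3.68 against 3.38 CPM per kb. The highest levels per length belonged to SWI/SNF subunits, with Smarcc2 at 19.8 ± 2.45 and Smarcd2 at 19.3 ± 1.91 CPM per kb (SD over 20 livers), which overlap within their spread. The NuRD motor Chd4 followed at 14.2 ± 2.20 and the acetyltransferase Kat2b (PCAF) at 13.8 ± 1.90 CPM per kb, again within each other's spread. At the low end stood Ezh2 at 0.584 ± 0.101 and Smarcd3 at 0.497 ± 0.0957 CPM per kb. The counts of Smarcd3 are uncertain, because its gene overlaps 2466 bases of Chpf2 on the opposite strand, which had 799% as many counts, and whether the counting used strand is not stated. Smarcc1 and Pbrm1 overlap Dhx30 and Gnl3 by less, over 123 and 15 bases on the opposite strand, and these had 96.0% and 102% as many counts.

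**Figure D1:**
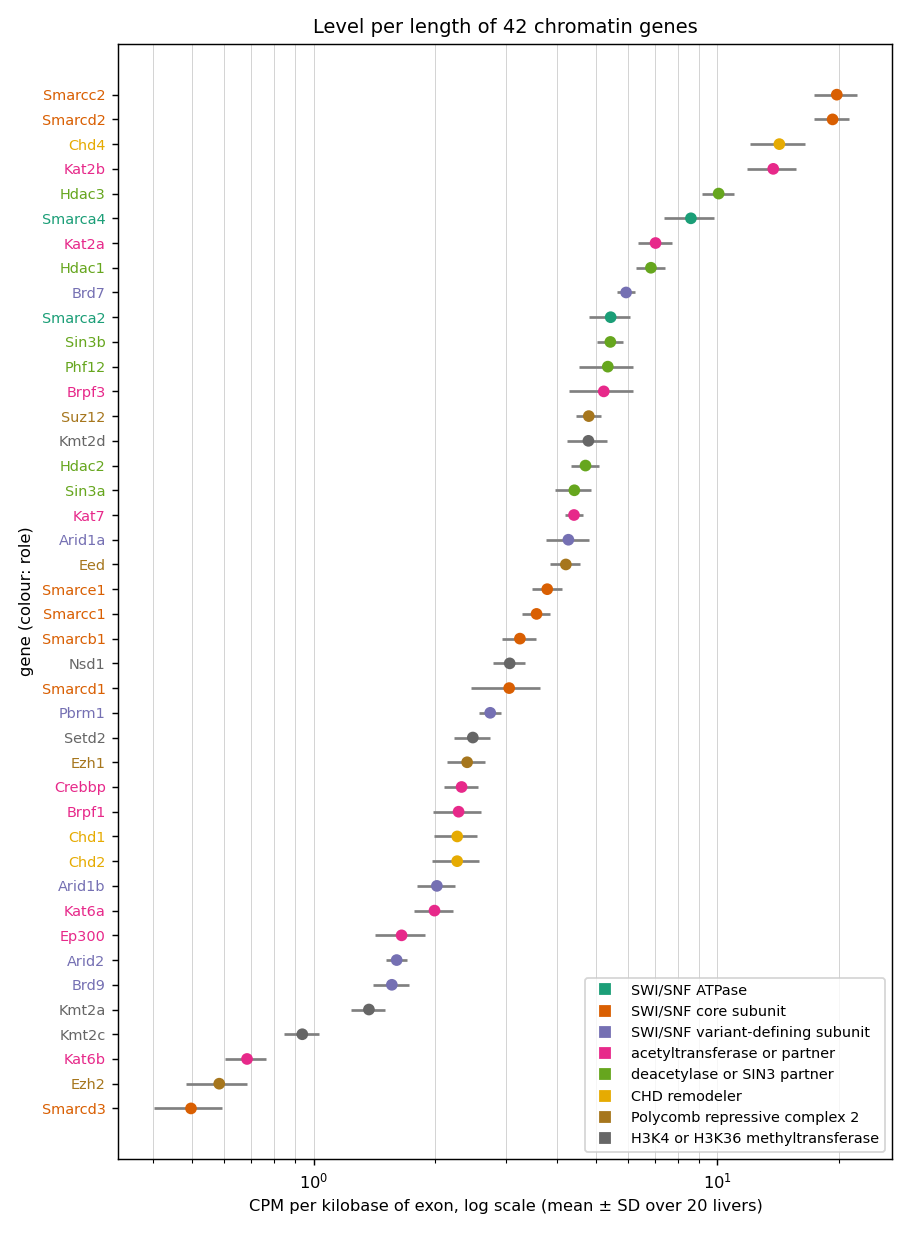
Level of the 42 members per length, as mean ± SD over 20 livers of CPM per kilobase of exon on a log axis. Smarcc2 and Smarcd2 lead at 19.8 and 19.3 CPM per kb, and Ezh2 and Smarcd3 close the order at 0.584 and 0.497.

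The promoters of Phf12, Smarca4 and Brpf1 are shown because these genes passed the test between guides. RefSeq promoter windows (GRCm38.p6) matched 34 of the 42 members, and those of Chd1 and Kat6a were not among them. Capitals mark each match, on either strand, to the GC box GGGCGG or to CCAAT, so that a match on the minus strand reads as the reverse complement. The windows lie on the plus strand at chr11:77982566-77982753 (Phf12), chr9:21615919-21616168 (Smarca4) and chr6:113306887-113307136 (Brpf1), and each ends at the base before the first exon of the gene.
Phf12: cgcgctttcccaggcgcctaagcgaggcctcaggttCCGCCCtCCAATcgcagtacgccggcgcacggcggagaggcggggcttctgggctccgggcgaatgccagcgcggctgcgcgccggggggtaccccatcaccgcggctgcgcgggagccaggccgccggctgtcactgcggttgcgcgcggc
Smarca4: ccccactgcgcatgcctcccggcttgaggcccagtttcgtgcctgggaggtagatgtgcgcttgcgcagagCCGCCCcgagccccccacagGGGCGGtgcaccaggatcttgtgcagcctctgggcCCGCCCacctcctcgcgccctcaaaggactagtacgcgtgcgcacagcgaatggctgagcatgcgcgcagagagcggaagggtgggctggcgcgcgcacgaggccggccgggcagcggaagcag
Brpf1: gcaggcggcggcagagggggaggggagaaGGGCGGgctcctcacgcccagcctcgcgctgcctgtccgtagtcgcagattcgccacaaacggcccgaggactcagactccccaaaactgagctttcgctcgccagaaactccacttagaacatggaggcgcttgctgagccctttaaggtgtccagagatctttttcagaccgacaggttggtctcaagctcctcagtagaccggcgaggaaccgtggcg
Phf12 had 1 GC box and 1 CCAAT, Smarca4 had 3 GC boxes and Brpf1 had 1. The GC box was found in 52.6% of 13671 promoters, in 76.5% of the members' windows (26 of 34) and in 77.2% of those of 123 other chromatin genes. CCAAT was found in 35.4% of all, in 17.6% of the members' windows and in 43.1% of those of the other chromatin genes. In the same order the ETS core CCGGAA was at 19.1%, 20.6% and 21.1%, the E-box CACGTG at 7.65%, 2.94% and 12.2% and the TATA box TATAAA at 7.90%, 5.88% and 3.25%, and none of the 3 was found in the windows shown. No match overlapped another in them. Over the whole 250 bases before the RefSeq start, the members held a median of 25.5 CpG against 14.0 for all promoters. These are descriptions of letters in a window.

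The first comparison asked what the HIRA guide changed 3 weeks after injection. No member was called at an adjusted p under 0.05 by edgeR, where 0.197% of all genes tested were called. At an unadjusted p under 0.05 there were 5 higher and 3 lower, that is 8 of 42 where 8.87% of all genes passed, and DESeq2 called 2 (Chd2 higher, Smarca4 lower), where it called 0.997% of all genes. The median log2 fold change of the members was 0.03 and that of all genes tested -0.01. All 42 intervals of the change (95%) lay between -0.62 and 0.57 on the log2 scale, so that none reached a change of 1 in either direction. In 3 members, Chd1, Chd2 and Brpf3, all HIRA livers were above all Rosa26 livers, and in Smarca4 all were below, where 1.45% and 1.24% of all genes separated in these directions.

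At 6 months 3 members rose in HIRA livers and none fell, where edgeR called 1.31% of all genes tested, 0.695% higher and 0.612% lower. Those that rose were Phf12, a PHD-finger protein of the SIN3 corepressor, Chd1, a remodeler of transcribed genes, and Brpf1, a scaffold of the KAT6 acetyltransferases. At an unadjusted p under 0.05 there were 11 higher and 2 lower, 13 of 42 where 15.5% of all genes passed. The same 3 genes were called without HIRA replicate 5, where 1.74% of all genes were. Leaving out each library in turn gave 1 to 5 called members, with Phf12 alone without Rosa26 6 months replicate 1 or 4 and with Kat2a and Smarcd1 added without HIRA 6 months replicate 4. The share of all genes called moved the same way, to 0.458%, 0.216% and 1.69% in these 3 fits. DESeq2 on all libraries called 7, with Arid1a, Kat2a and Smarcd1 higher and Smarca4 lower beside these 3, where it called 3.91% of all genes. Fitting the 10 libraries of this time alone ended the calls, with 0 of 20832 genes called by edgeR, 2629 of them at an unadjusted p under 0.05. DESeq2 on the same 10 libraries called 222 genes higher and 338 lower (2.69%), among them 4 members (Phf12, Chd1, Brpf1 and Arid1a, all higher). The members' median log2 fold change was 0.09 against 0.03 for all genes. It ran from 0.039 to 0.117 when a library was left out and was 0.030 with DESeq2 without HIRA replicate 5. The members' intervals lay between -0.45 and 0.71.

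In 8 members all 5 HIRA livers lay above all 5 Rosa26 livers at 6 months, namely Phf12, Chd1, Brpf1, Kat2a, Arid1a, Setd2, Ep300 and Kat7, and in none did they lie below. Over all genes tested 1.41% separated upward and 1.74% downward. Without HIRA replicate 5 the same 8 stood above and Smarca4 and Arid2 stood below, where 2.72% and 2.96% of all genes did. Averaged over the 2 times, Phf12, Chd1 and Kat6a rose and Smarca4 fell, 4 of 42 where 2.85% of all genes were called, 1.48% higher and 1.37% lower. No member passed the study's added threshold of a log2 fold change beyond 1, which 0.114% of genes passed at 3 weeks, 0.332% at 6 months and 0.468% in the average. In sign, 19 members were higher in HIRA at both times, 9 lower at both and 14 of opposite sign, and without HIRA 6 months replicate 5 these were 18, 10 and 14. At each time alone 25 of 42 were higher at 3 weeks and 27 at 6 months, where 49.0% and 54.3% of all genes tested were. Length moved with these values. Of the members, 36 were longer than the median of genes of at least 1 CPM, and at 6 months the median log2 fold change was -0.02 in the shortest of 3 equal groups of such genes and 0.05 in the longest. In that longest group 60.9% of genes were higher in HIRA at 6 months. The part of length was not tested.

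**Figure D2:**
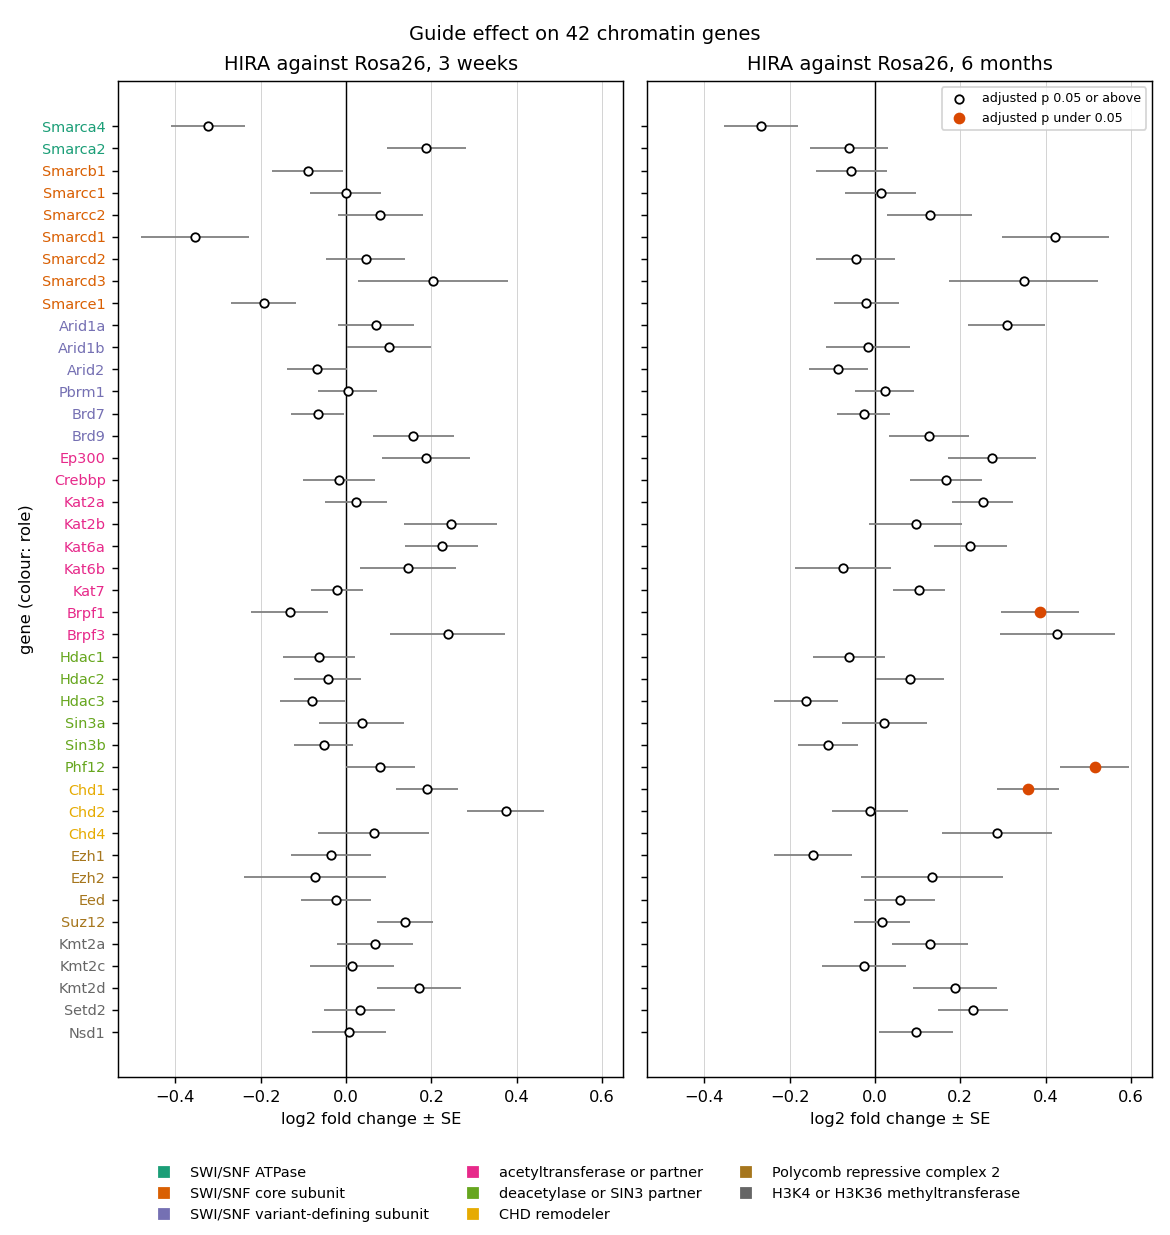
Log2 fold change of the 42 members, HIRA against Rosa26, at 3 weeks and 6 months, as points with SE bars from edgeR (5 livers per group), where filled orange points have an adjusted p under 0.05. None is filled at 3 weeks, and Phf12 (0.52), Brpf1 (0.39) and Chd1 (0.36) are filled at 6 months.

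The plot of fold changes puts most members close to 0 at either time. It also shows that the order of the genes differs between the times, with Chd2 at the top at 3 weeks and near 0 at 6 months, and with Smarcd1 at opposite ends. The map of single livers shows the same values before averaging, and no group forms a block of 1 colour over all members.

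**Figure D3:**
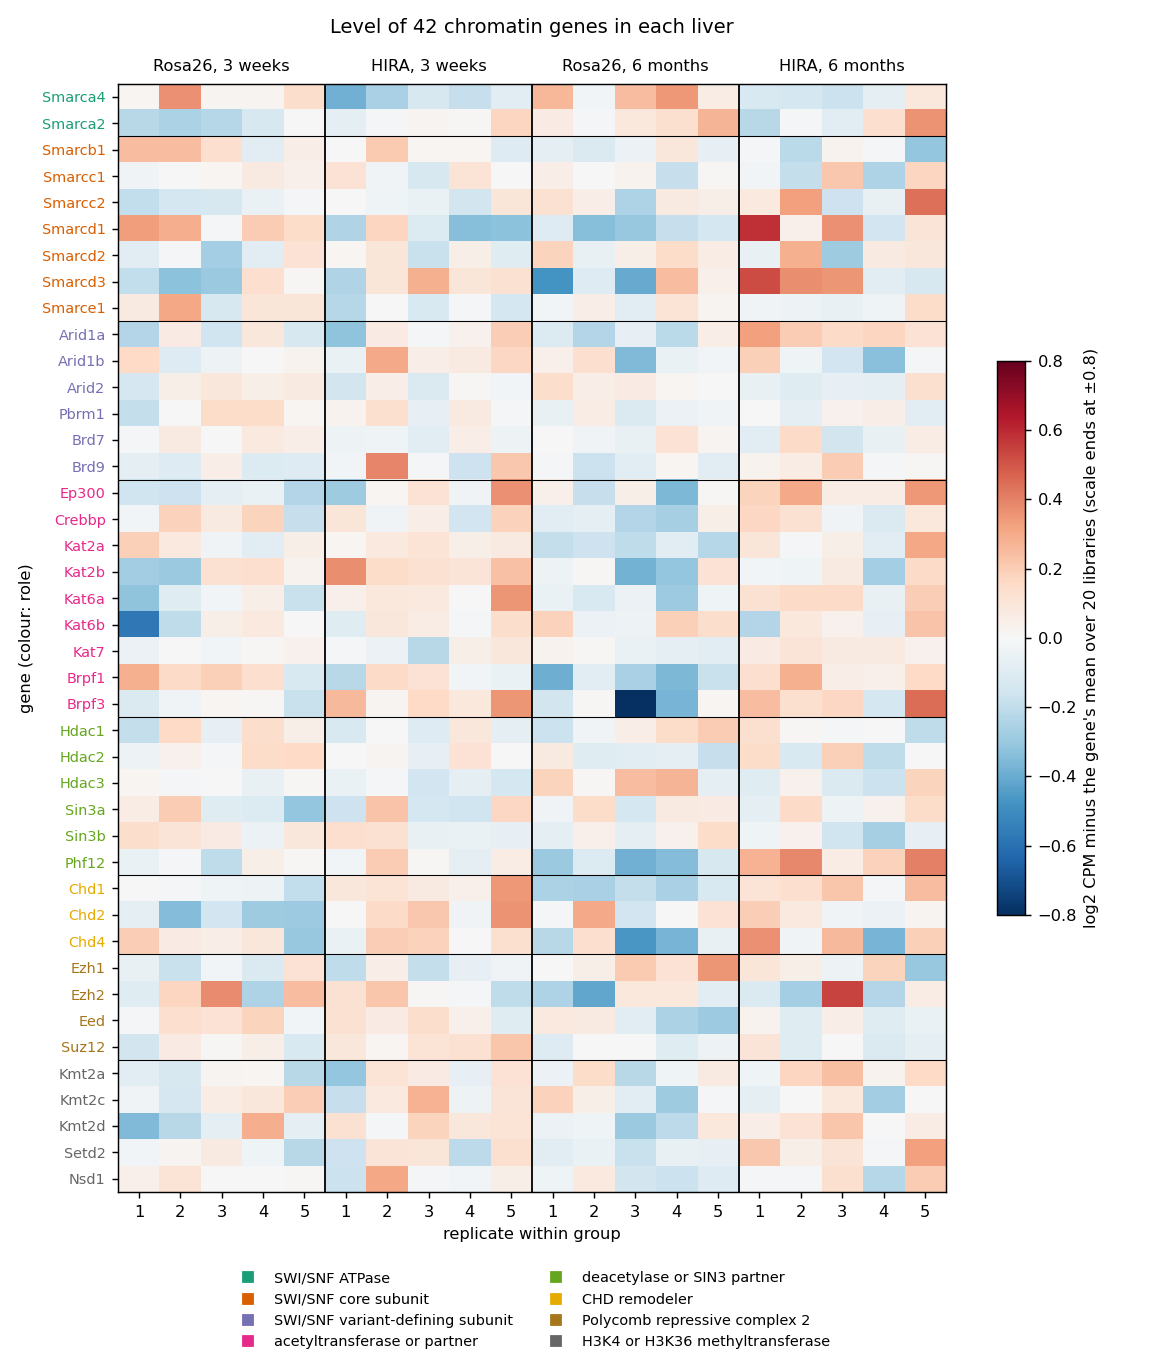
Expression of the 42 members (rows, ordered by role) in 20 livers (columns, by group), as log2 CPM minus the mean of the gene, with a colour scale ending at -0.8 and 0.8. Smarca4 is below its mean in the HIRA livers of 3 weeks, Phf12 is above its mean in those of 6 months, and Brpf3 in Rosa26 6 months replicate 3 sits at the lower end.

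Among the SWI/SNF motors, Smarca4 (chr9:21616169-21704230, plus strand) encodes BRG1. At 3 weeks it was at 55.9, 71.1, 56.2, 56.0 and 60.7 CPM in Rosa26 livers and at 42.4, 46.1, 50.6, 48.6 and 51.8 CPM in HIRA livers. Every HIRA liver was below every Rosa26 liver. After 6 months its values were 66.4, 54.4, 65.6, 70.2 and 57.5 CPM in Rosa26 and 50.8, 50.1, 49.1, 52.5 and 58.5 CPM in HIRA livers. Here the groups overlapped through HIRA replicate 5, the highest of its group. The log2 fold change was -0.32 ± 0.09 (SE) at 3 weeks and -0.27 ± 0.09 at 6 months, neither called by edgeR (adjusted p = 0.151 and 0.131). Without HIRA replicate 5 the change at 6 months was -0.31 (0.0748), and the groups did not overlap. Averaged over the times it fell by 0.30 ± 0.06 (log2, adjusted p = 0.0101 with edgeR), and without HIRA 6 months replicate 5 by 0.32 (adjusted p = 0.00527). The average was called in 20 of the 20 fits that left out a library.

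Smarca2 encodes BRM, the alternative motor. It was at 66.1, 64.9, 65.8, 70.6 and 77.3 CPM in Rosa26 and at 73.4, 76.6, 78.2, 77.8 and 86.8 CPM in HIRA livers at 3 weeks. At 6 months the values were 80.8, 76.3, 81.9, 84.4 and 93.1 CPM in Rosa26 and 66.1, 76.7, 72.9, 84.6 and 99.2 CPM in HIRA livers. The groups overlapped at both times, and the log2 fold changes of 0.19 and -0.06 were not called (edgeR adjusted p = 0.572 at 3 weeks). Without HIRA replicate 5 the value at 6 months was -0.15. The ratio of the motors within a liver was read from the counts of both genes. The log2 ratio of Smarca4 to Smarca2 was -0.20 ± 0.20 (SD, n = 5) in Rosa26 and -0.72 ± 0.06 in HIRA livers at 3 weeks, without overlap. The difference of -0.51 had p = 0.00794 in a 2-sided exact permutation test, the smallest that 5 livers against 5 allow, and 0.159 when adjusted over the 20 ratio tests. At 6 months the difference was -0.19 (exact permutation p = 0.111, adjusted 0.370), and -0.15 without HIRA replicate 5. Per length, Smarca4 was the higher of the pair in 20 of 20 livers, with a mean ratio of 1.60.

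**Figure D4:**
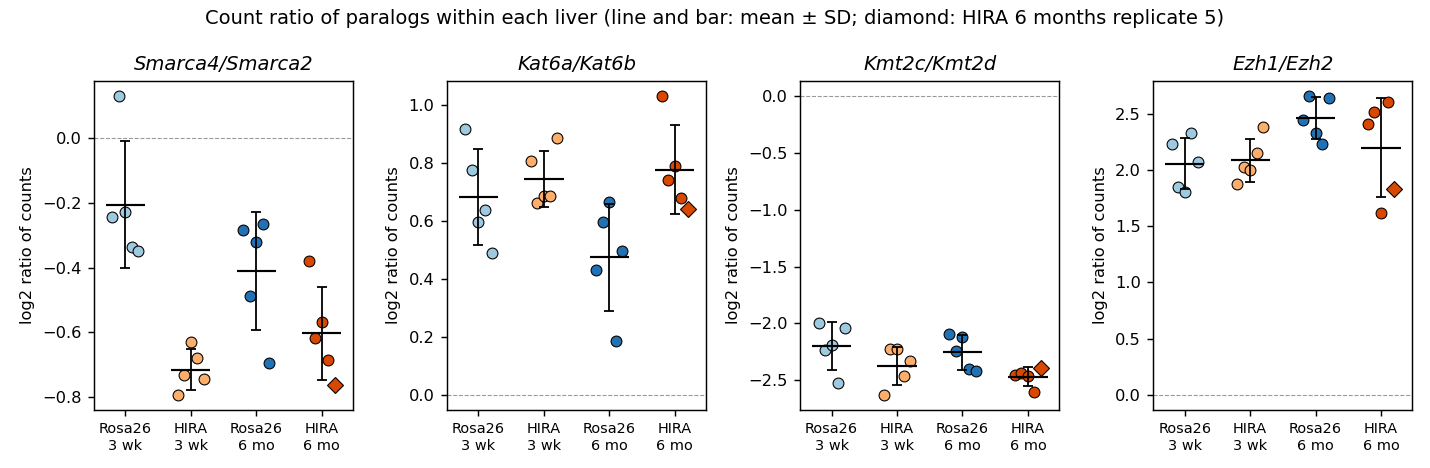
Log2 count ratio of 4 paralog pairs in each liver by group, with the mean and SD. The Smarca4 to Smarca2 ratio of the 3-week HIRA livers lies around -0.72, below every Rosa26 liver of that time, and the Ezh1 to Ezh2 ratios overlap at both times.

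Of the 7 core SWI/SNF subunits edgeR called none at either time, and DESeq2 called Smarcd1 higher at 6 months. Smarcd1 (BAF60a), which links the complex to transcription factors, went in opposite directions. At 3 weeks it was at 15.3, 14.8, 12.0, 13.9 and 13.4 CPM in Rosa26 and at 10.2, 13.6, 11.2, 9.54 and 9.63 CPM in HIRA livers, with 1 HIRA liver among the Rosa26 values. At 6 months it was at 11.3, 9.55, 9.81, 10.7 and 11.0 CPM in Rosa26 and at 18.1, 12.4, 15.6, 10.9 and 13.0 CPM in HIRA livers, with 1 HIRA liver again inside the range of the other group. The log2 fold changes were -0.35 ± 0.13 and 0.42 ± 0.13 (SE; edgeR adjusted p = 0.348 and 0.0964). The difference between them was 0.78, with a 95% interval of 0.41 to 1.15, an unadjusted p of 0.000269 and an adjusted p of 0.614 over all genes. Without HIRA replicate 5 the change at 6 months was 0.45 (adjusted p = 0.0825), and DESeq2 called the difference between times, where edgeR did not.

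Smarce1, a DNA-binding subunit of the same complex, was at 26.5, 31.1, 23.0, 26.8 and 26.9 CPM in Rosa26 and at 21.4, 25.1, 23.1, 24.9 and 22.8 CPM in HIRA livers at 3 weeks (log2 fold change -0.19 ± 0.08, edgeR adjusted p = 0.428). The groups overlapped. At 6 months the HIRA livers were at 24.6, 24.4, 24.1, 24.5 and 27.9 CPM and the Rosa26 livers at 24.8, 26.0, 23.7, 27.1 and 25.6 CPM. The highest value there came from HIRA replicate 5, and the log2 fold change was -0.02 with it and -0.06 without it. Smarcb1, Smarcc1, Smarcc2 and Smarcd2 had log2 fold changes between -0.09 and 0.13 at both times, and Smarcd3 had 0.20 and 0.35, none called.

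Of the 6 subunits that define a variant of the complex, Arid1a of the BAF form stood apart at 6 months. Its Rosa26 livers were at 45.1, 41.4, 46.5, 41.97 and 50.6 CPM and its HIRA livers at 61.2, 56.1, 54.2, 55.0 and 52.9 CPM. The groups did not overlap, and they differed by 0.31 ± 0.09 (log2; adjusted p = 0.0884 with edgeR, called by DESeq2) or by 0.33 without HIRA replicate 5 (0.0764). At 3 weeks they overlapped, with 41.4, 51.1, 43.7, 51.8 and 44.6 CPM in Rosa26 and 39.1, 51.0, 48.3, 50 and 55.8 CPM in HIRA livers. Its paralog Arid1b had a log2 fold change of -0.02 at 6 months, and the ratio of the pair differed by 0.33 (exact permutation p = 0.0397, adjusted 0.198), or by 0.36 without HIRA replicate 5 (adjusted 0.238). Arid2, Pbrm1, Brd7 and Brd9, which mark the other forms, lay between -0.09 and 0.16 at both times.

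The acetyltransferases and their partners, 9 genes, had median log2 fold changes of 0.15 at 3 weeks and 0.22 at 6 months, with 6 and 8 of them higher in HIRA. The medians of all genes tested were -0.01 and 0.03. Brpf1 (chr6:113307137-113324860, plus strand) was at 18.7, 17.1, 17.5, 16.9 and 14.1 CPM in Rosa26 and at 13.2, 17.1, 16.6, 15.1 and 14.8 CPM in HIRA livers at 3 weeks. These groups overlapped and differed by -0.13 ± 0.09 on the log2 scale (adjusted p = 0.754, edgeR). Values at 6 months were 11.7, 14.4, 12.8, 12.0 and 13.6 CPM in Rosa26 and 16.9, 18.7, 15.9, 15.8 and 17.1 CPM in HIRA livers. Every HIRA liver was above every Rosa26 liver. The rise was 0.39 ± 0.09 (log2, adjusted p = 0.0379 with edgeR), and 0.38 without HIRA replicate 5 (0.0477). It was lost without Rosa26 6 months replicate 1, 3, 4 or 5 or HIRA 6 months replicate 1 or 2, where the adjusted p was 0.0564 to 0.117, and in the fit of the 6-month libraries alone (0.137). The HIRA livers of 6 months stood near the Rosa26 livers of 3 weeks, at 16.9 ± 1.18 and 16.8 ± 1.69 CPM (SD, n = 5).

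Kat6a (chr8:22859535-22943259, plus strand) encodes MOZ, an acetyltransferase that Brpf1 scaffolds. It was at 14.5, 17.0, 17.9, 18.8 and 16.1 CPM in Rosa26 and at 18.7, 19.3, 19.2, 18.2 and 23.3 CPM in HIRA livers at 3 weeks. By 6 months it was at 17.5, 16.7, 17.6, 14.9 and 17.8 CPM in Rosa26 and at 19.8, 20.3, 20.2, 17.5 and 20.8 CPM in HIRA livers. At both times 1 or more livers overlapped. The log2 fold change was 0.22 at 3 weeks and 0.22 at 6 months (0.20 without HIRA replicate 5), and the average rose by 0.22 ± 0.06 with an edgeR adjusted p of 0.048. That call was lost without HIRA 6 months replicate 5 (0.0585), with the DESeq2 size factors (0.0554) and with limma-voom (0.0542). It was kept in 3 of the 20 fits that left out a library, without HIRA 3 weeks replicate 4, HIRA 6 months replicate 4 or Rosa26 3 weeks replicate 4, over a range of adjusted p from 0.0318 to 0.0988. Its paralog Kat6b had 0.15 and -0.08, and the ratio of the pair differed by 0.30 at 6 months (exact permutation p = 0.0159, adjusted 0.159) and by 0.34 without HIRA replicate 5 (adjusted 0.106).

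Brpf3, the related scaffold of Kat7, was at 41.0, 43.6, 45.1, 44.8 and 39.3 CPM in Rosa26 and at 53.2, 45.1, 49.7, 47.3 and 56.9 CPM in HIRA livers at 3 weeks, without overlap at full precision. At 6 months it was at 40.2, 44.8, 23.4, 34.3 and 44.96 CPM in Rosa26 and at 52.8, 48.6, 49.98, 40.3 and 60.7 CPM in HIRA livers, where Rosa26 replicate 3 was the lowest of all. The log2 fold change was 0.43 ± 0.13 at 6 months (edgeR adjusted p = 0.119) and 0.33 ± 0.10 averaged over the times (0.0641, called by DESeq2). Without HIRA 6 months replicate 5 these were 0.35 (0.179) and 0.30 (0.0825).

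Kat2a and Kat2b encode GCN5 and PCAF, the alternative acetyltransferases of the SAGA complex. Kat2a was at 21.3, 21.7, 21.1, 22.9 and 20.8 CPM in Rosa26 and at 26.0, 24.2, 25.2, 22.9 and 30.1 CPM in HIRA livers at 6 months, apart by a narrow margin (0.25 ± 0.07, edgeR adjusted p = 0.0853). HIRA replicate 5 was the highest, and without it the change was 0.19 (0.142). At 3 weeks it overlapped, with 27.8, 25.8, 23.9, 22.9 and 25.2 CPM in Rosa26 and 24.7, 25.7, 26.3, 25.2 and 25.6 CPM in HIRA livers. Kat2b was at 54.8, 54.1, 72.3, 72.8 and 67.5 CPM in Rosa26 and at 86.0, 73.5, 72.3, 71.4 and 78.0 CPM in HIRA livers at 3 weeks (0.25 ± 0.11, edgeR adjusted p = 0.516), and at 64.6, 66.8, 51.1, 53.5 and 71.8 CPM against 65.4, 64.9, 69.8, 54.9 and 73.8 CPM at 6 months. The groups overlapped at both times, and the change at 6 months was 0.10, or 0.05 without HIRA replicate 5.

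Ep300 and Crebbp encode p300 and CBP, which acetylate histones at enhancers. Ep300 was at 23.99, 20.6, 24.1, 18.2 and 23.5 CPM in Rosa26 and at 26.4, 28.9, 24.3, 24.4 and 29.7 CPM in HIRA livers at 6 months. The groups were apart by 0.27 on the log2 scale without an edgeR call (adjusted p = 0.192), and by 0.23 without HIRA replicate 5, the highest (0.255). At 3 weeks they overlapped, with 20.9, 20.9, 22.2, 22.5 and 19.8 CPM in Rosa26 and 19.2, 23.7, 25.3, 22.9 and 30.05 CPM in HIRA livers. Crebbp overlapped at both times, with 30.9, 35.6, 32.9, 35.5 and 27.6 CPM in Rosa26 and 33.6, 30.7, 32.6, 28.2 and 35.6 CPM in HIRA livers at 3 weeks. At 6 months it was at 29.5, 29.8, 26.7, 26.1 and 32.3 CPM in Rosa26 and at 35.1, 34.2, 30.7, 28.9 and 33.2 CPM in HIRA livers (0.17, edgeR adjusted p = 0.356, and 0.16 without HIRA replicate 5).

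Among the deacetylases and SIN3 partners, Phf12 had the largest log2 fold change of all members at 6 months (chr11:77982754-78030539, plus strand). At 3 weeks it was at 25.0, 25.7, 22.6, 26.8 and 26.2 CPM in Rosa26 and at 25.6, 29.9, 26.2, 24.6 and 27.1 CPM in HIRA livers. The groups overlapped and differed by 0.08 ± 0.08 in log2 units (edgeR adjusted p = 0.868). The 6-month livers were at 21.2, 24.1, 20.0, 20.5 and 23.8 CPM in Rosa26 and at 31.6, 33.9, 27.1, 29.5 and 34.5 CPM in HIRA livers. The lowest HIRA liver was above the highest Rosa26 liver. The rise was 0.52 ± 0.08 on the log2 scale, or 43% (edgeR adjusted p = 0.0105), and it was kept in each fit that left out 1 library. Without HIRA replicate 5 it was 0.48 (0.00781), and with the 6-month libraries alone the adjusted p was 0.0949. The difference of the effects between the times was 0.44 ± 0.11 (unadjusted p = 0.00102, adjusted 0.614).

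The other 5 genes of this role, Hdac1, Hdac2, Hdac3, Sin3a and Sin3b, are the catalytic and scaffold proteins of the corepressor complexes. Their log2 fold changes lay between -0.16 (Hdac3 at 6 months, unadjusted p = 0.0415) and 0.08, and none was called by edgeR at either time. DESeq2 called Hdac3 lower at 6 months when HIRA replicate 5 was left out.

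Of the 3 CHD remodelers, edgeR called none at 3 weeks and Chd1 at 6 months. Chd1 (chr17:15704967-15772610, plus strand) was at 19.7, 19.5, 19.2, 19.1 and 17.1 CPM in Rosa26 and at 20.97, 21.2, 20.7, 20.2 and 25.0 CPM in HIRA livers at 3 weeks. Chd1 at 6 months was at 16.5, 16.4, 17.3, 16.4 and 18.1 CPM in Rosa26 and at 21.2, 21.6, 22.9, 19.5 and 23.3 CPM in HIRA livers. At each time all HIRA livers were above all Rosa26 livers. The log2 fold change was 0.19 ± 0.07 at 3 weeks (edgeR adjusted p = 0.411), and the gene rose by 0.36 ± 0.07 at 6 months (0.0204) and by 0.27 ± 0.05 on average (0.00574). The 6-month call was kept without HIRA replicate 5 (0.33, 0.0294) and lost without Rosa26 6 months replicate 1 (0.0512) or 4 (0.0661) and with the 6-month libraries alone (0.104). The effects at the 2 times differed by 0.17 ± 0.10 (adjusted p = 0.818).

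Chd2, its close relative, was at 30.4, 25.3, 28.9, 26.5 and 26.2 CPM in Rosa26 and at 32.1, 35.7, 37.4, 31.5 and 41.3 CPM in HIRA livers at 3 weeks, without overlap (0.37 ± 0.09, edgeR adjusted p = 0.0929). Chd2 at 6 months was at 31.9, 39.8, 29.0, 32.1 and 34.9 CPM in Rosa26 and at 36.8, 33.9, 31.5, 31.1 and 32.7 CPM in HIRA livers, with full overlap (-0.01 ± 0.09 with and -0.01 without HIRA replicate 5). The effects differed by -0.39 ± 0.13 (unadjusted p = 0.00617), which did not pass over all genes. Chd4 had 0.06 and 0.29, not called.

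**Figure D5:**
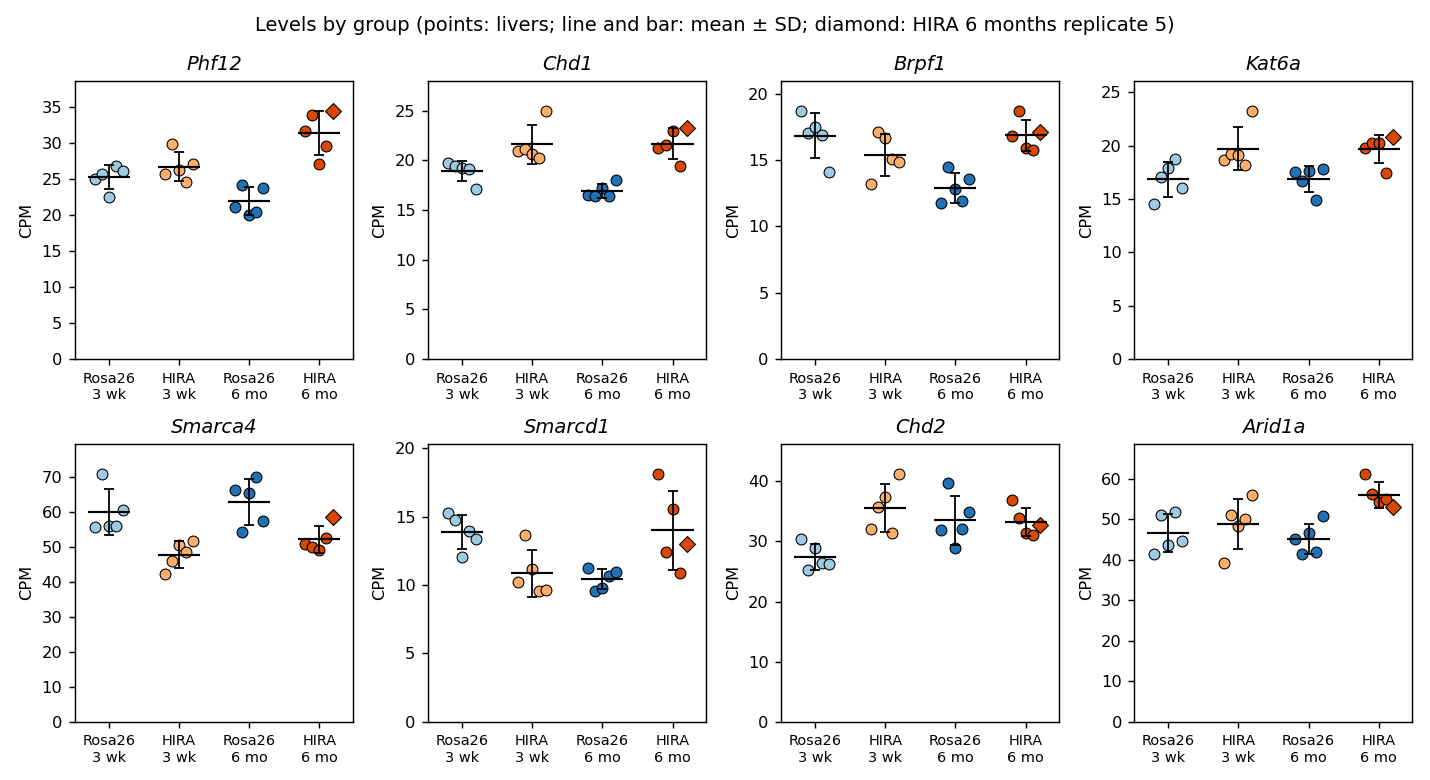
Level in CPM of 8 members by group, from 0, with a point for each liver and the mean ± SD (n = 5). HIRA 6 months replicate 5 is drawn as a diamond. Phf12, Chd1, Brpf1 and Arid1a separate at 6 months, and Chd1, Chd2 and Smarca4 separate at 3 weeks.

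The plot of levels sets the called members beside Smarcd1, Chd2 and Arid1a. For Phf12 and Brpf1 the HIRA means of the 2 times were 26.7 and 31.3 CPM, and 15.4 and 16.9 CPM. The Rosa26 means were lower at 6 months than at 3 weeks, at 25.3 and 21.9 CPM for Phf12 and 16.8 and 12.9 CPM for Brpf1. Neither time difference in Rosa26 livers was called (edgeR adjusted p = 0.0621 for Brpf1).

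No gene of Polycomb repressive complex 2 was called by edgeR in any comparison, and 1 of the 4 (Suz12 at 3 weeks, log2 fold change 0.14, unadjusted p = 0.0463) was under 0.05 unadjusted in a guide comparison. Ezh1 was at 17.0, 15.7, 17.5, 16.4 and 19.2 CPM in Rosa26 and at 15.4, 18.4, 15.5, 16.9 and 17.5 CPM in HIRA livers at 3 weeks. At 6 months it was at 17.7, 18.4, 20.6, 19.3 and 22.7 CPM in Rosa26 and at 19.0, 18.4, 17.3, 20.1 and 14.4 CPM in HIRA livers. The groups overlapped, with intervals of -0.23 to 0.16 at 3 weeks and -0.34 to 0.05 at 6 months on the log2 scale. The change at 6 months was -0.15, and -0.08 without HIRA replicate 5, the lowest of its group.

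Ezh2 was at 3.598, 4.34, 4.99, 3.25 and 4.56 CPM in Rosa26 and at 4.19, 4.50, 3.87, 3.81 and 3.34 CPM in HIRA livers at 3 weeks. Ezh2 at 6 months was at 3.24, 2.89, 4.09, 4.08 and 3.62 CPM in Rosa26 and at 3.56, 3.19, 5.60, 3.28 and 4.02 CPM in HIRA livers. These overlapped too, with wider intervals of -0.42 to 0.27 and -0.21 to 0.48. The change at 6 months was 0.13 with and 0.13 without HIRA replicate 5. Per length, Ezh1 was the higher of the pair in every liver, with a mean ratio of 4.23 and a range of 2.77 to 5.70. Their log2 ratio differed between guides by 0.03 at 3 weeks and -0.26 at 6 months (exact permutation p = 0.849 and 0.302), and by -0.17 at 6 months without HIRA replicate 5.

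Of the 5 methyltransferases none was called. Setd2, which trimethylates H3 in transcribed genes, separated at 6 months with a log2 fold change of 0.23 (unadjusted p = 0.0109), or 0.18 without HIRA replicate 5 (0.0414). Kmt2d, an enhancer enzyme, had 0.17 and 0.19, its paralog Kmt2c 0.01 and -0.03, and their ratio differed by -0.21 at 6 months (exact permutation p = 0.0238, adjusted 0.159) and by -0.23 without HIRA replicate 5 (adjusted 0.106). Kmt2a and Nsd1 lay between 0.01 and 0.13.

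The interaction asked whether the effect of the guide differed between the times. EdgeR called 0 members and 0.0% of all genes, with 4 members positive and 1 negative at an unadjusted p under 0.05, where 6.62% of all genes passed. DESeq2 and limma-voom also called 0. The 5 members were Smarcd1, Phf12, Brpf1, Chd2 and Kat2a. From 3 weeks to 6 months no member was called in Rosa26 livers, where edgeR called 0.324% of all genes, with 3 higher and 5 lower at an unadjusted p under 0.05 (12.8% of all genes), and DESeq2 called Brpf1 lower (2.23% of all genes). All Smarcd1 values of 6 months in Rosa26 lay below all those of 3 weeks (1.81% of genes did). In HIRA livers no member was called either (0.0656% of all genes), with 3 higher and 1 lower at an unadjusted p under 0.05 (8.95%), and DESeq2 called 0. The median of the members was -0.04 in Rosa26 and 0.01 in HIRA livers.

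Other chromatin genes, a list of 155, were read in the same fit. At 3 weeks 2 rose and none fell, where 0.197% of all genes tested were called. They were Jade1, a scaffold of the Kat7 complex, and Kdm6b, a histone H3 demethylase. Jade1 went from 20.1 ± 1.94 to 32.7 ± 4.59 CPM (SD, n = 5; log2 fold change 0.70 ± 0.13, edgeR adjusted p = 0.0302) and Kdm6b from 23.5 ± 2.71 to 35.2 ± 4.31 CPM (0.58 ± 0.11, 0.0412). At 6 months 5 rose and none fell, where 1.31% of all genes were called. They include Dot1l, which methylates the core of histone H3 (26.1 ± 3.01 to 39.4 ± 4.46 CPM, edgeR adjusted p = 0.0141), and Kmt2b, a promoter methyltransferase (33.5 ± 2.86 to 43.5 ± 2.28 CPM, 0.0141). The Polycomb protein Pcgf6 (0.78 ± 0.17, 0.0263), the nucleolar remodeler subunit Baz2a (0.37 ± 0.08, 0.0283) and Brd1, a scaffold related to Brpf1 (0.38 ± 0.09, 0.0382, named after its value was seen), were the others. At 6 months 5 were also called without HIRA replicate 5, 13 by DESeq2 (3.91% of all genes) and 0 by edgeR with the 6-month libraries alone. Averaged over the times 11 of the 155 were called, where 2.85% of all genes were, and 10 of them rose, led by Kdm6b (0.46 ± 0.08, 0.00371), Baz2a, Pcgf6 and Kmt2b, and the deacetylase Hdac10 fell by 0.33 ± 0.09 (0.0427). DESeq2 called 18 of the 155 in the average, where it called 5.58% of all genes. In sign 87 of 155 were higher in HIRA at 3 weeks and 117 at 6 months, where 49.0% and 54.3% of all genes tested were. None of the 155 was called in the interaction.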

How the data were processed

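RNA-seq of 20 mouse livers was used. The authors trimmed reads, aligned them to mm10 with STAR and deposited raw counts (whole numbers) per gene. The study names HOMER as its counter and the submitters' processing notes list HTSeq and Cufflinks, and whether strand was used is not given in the sources used here. The authors also deposited FPKM values, which entered 1 alternative as log2(FPKM + 1) in limma.

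Genes with at least 10 counts in total were tested by the quasi-likelihood test of edgeR 4.0.16 with TMM factors and a mean for each group over all 20 libraries. P-values were Benjamini-Hochberg adjusted over 22867 genes, and called means an adjusted p under 0.05. Values per liver are CPM on TMM library sizes. Intervals are 95%. Paralog ratios are log2 count ratios with 0.5 added, compared by a 2-sided exact permutation test. Alternatives were DESeq2 1.42.0, limma 3.58.1 (voom), other size factors and filters, and leaving out each library. The test was checked on simulated data. Gene positions and exon lengths are GENCODE M21, which matched 98.7% of identifiers, and Kat6a, Kat6b and Eed matched without the version of the identifier. All replicates differed beyond sampling noise.

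The members and the gene lists were chosen with earlier results of these data known. Values per liver are given for the called members, for those with the smallest unadjusted p up to 12 genes, and for 5 enzymes of the PRC2, p300 and BRM families. The 155 other chromatin genes were named up to 4 per direction and comparison, except Brd1 at 6 months.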

Additional observations from a re-analysis of the deposited data

Results flagged for a closer look

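In 11 of 168 groups of 5 livers (42 members, 4 groups) the highest or lowest log2 CPM lay apart from the other 4 by more than 0.71 of the range of the group, Dixon's critical value. Chance gives about 1 in 20, which is 8.4 groups. Chd1 was at 4.11 in Rosa26 3 weeks replicate 5 (nearest 4.26) and at 4.65 in HIRA 3 weeks replicate 5 (nearest 4.41), so that the separation of Chd1 at 3 weeks includes both. Kat6a was at 4.55 in HIRA 3 weeks replicate 5 (nearest 4.27) and at 4.13 in HIRA 6 months replicate 4 (nearest 4.32).

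HIRA 6 months replicate 5, the library that goes against its sex label, was the highest of its group for Smarce1 (4.80, nearest 4.63) and Arid2 (4.24, nearest 4.05). In Rosa26 livers of 3 weeks, Arid2 was at 3.98 in replicate 1 (nearest 4.16), Brd9 at 3.50 in replicate 3 (nearest 3.38) and Chd4 at 6.52 in replicate 5 (nearest 6.88). In Rosa26 livers of 6 months, Smarcc1 was at 4.62 in replicate 4 (nearest 4.81) and Smarcc2 at 6.52 in replicate 3 (nearest 6.82).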

How the results depend on the processing

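The counts of called members moved by over 1.5 times under the following settings, and the cause was not tested. Shares of all genes called under the same setting stand in parentheses. At 3 weeks DESeq2 called 2 instead of 0 (0.997%), also without HIRA 6 months replicate 5 (2, 1.38%) and on the libraries of that time alone (2, 2.57%). At 6 months DESeq2 called 7 instead of 3 (3.91% against 1.31%), also without replicate 5 (7, 5.07%), the fold threshold left 0 (0.332%), and edgeR on the 6-month libraries alone left 0 with replicate 5 (0.0%) and 0 without it (0.0292%). The median log2 fold change of the members at 6 months, 0.09, was 0.030 with DESeq2 without replicate 5 and 0.039 to 0.117 when each library was left out in turn. In the average the fold threshold left 0 of 4 (0.468%). For the interaction DESeq2 without replicate 5 called 1 instead of 0 (0.0573%). In Rosa26 livers over time DESeq2 called 1 instead of 0 (2.23%) and 3 without replicate 5 (3.01%).

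Leaving out each library gave 1 to 5 called members at 6 months, with 1 without Rosa26 replicate 1 or 4 (0.458% and 0.216% of all genes) and 5 without HIRA replicate 4 (1.69%). It gave 3 to 5 in the average (1.81 to 3.92% of all genes) and 0 to 1 in Rosa26 over time (0.00441 to 0.938%), with Brpf1 called lower without Rosa26 3 weeks replicate 5, Rosa26 6 months replicate 2 or HIRA 6 months replicate 5. With the replicate block the same 3 were called at 6 months (1.42%) and Kat6a was lost in the average (adjusted p = 0.0597, 2.93% of all genes called), and with the block and without replicate 5 it gave 2 in Rosa26 over time (1.49%). Same-numbered libraries of a time correlated over 0.1 in 4 of 10 pairs, with a range of -0.125 to 0.296. Such correlations cannot tell whether the numbers pair the mice. No called value changed sign under any alternative run, while Smarcc1 and Sin3a, both close to 0 and not called, changed from 0.013 and 0.022 to -0.033 and -0.0041 at 6 months without replicate 5. The lowest count of a member in a library was 40, and counting error is widest for members at that level.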
